A study of Mus musculus with 39 samples.

Results

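Of 39 RNA-seq libraries from PB2 mouse breast tumors, the 10 taken at day 10 from tumors with p95HER2 (the truncated form of the receptor HER2) were compared in 2 sets of 5. Replicates 2, 3, 7, 8 and 9 are high in RNA of genes of keratinized epidermis and are called skin-marked. Replicates 1, 4, 5, 6 and 10 are called skin-free. Skin RNA below means RNA of such genes, and its source was not tested. The sets were chosen by the measured level of epidermal genes. The split is therefore described without tests. The question was which further genes differ between the sets, which of those differences move with skin or with muscle RNA, and which do neither. All tests below come from the other 29 libraries, which had no part in the choice.

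The whole series has 4 groups: 10 libraries of full-length HER2 (FL-HER2) tumors at day 10, 9 of FL-HER2 tumors at day 22, 10 of p95HER2 tumors at day 10 and 10 of p95HER2 tumors at day 22. All carry the mouse line PB2 with an added HER2 construct, and messenger RNA was sequenced in strand-specific libraries after poly(A) selection. The labels name the tissue as breast cancer, and give no treatment, mouse strain or age, nor how the tumor was cut from the skin and body wall. They do not say that each library is a separate animal, so the p-values measure the spread between these libraries, which may be technical. Depth was similar in both sets, at 30797813 to 36761487 reads in the skin-marked and 33048520 to 36351314 in the skin-free libraries. The other libraries had 21772259 to 44427621 reads.

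The epidermis renews itself from a basal layer that makes keratins 5 and 14. Cells that leave this layer switch to keratins 1 and 10, join through desmosomes rich in desmoglein 1 and desmocollin 1, and finally crosslink loricrin, involucrin and late cornified envelope proteins into the dead outer layer. Skeletal muscle under the skin or in the body wall is marked by creatine kinase, fast myosins and skeletal actin. RNA from whole tissue gives 1 value for the mixture, so fewer cells of a type and less RNA per cell cannot be told apart.

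The promoters of a defining gene of each tissue are shown because these genes mark the axes of the split. The windows are from RefSeq on GRCm38.p6, run from 250 bases before to 50 after the annotated start, and are written 5′ to 3′ on the strand of the gene. The loricrin window lies at chr3:92083093-92083392 on the minus strand and the Ckm window at chr7:19410844-19411143 on the plus strand. In the Lor window, capitals mark a match to the AP-1 motif, spelled TGANTCA, and a match to the sequence TATAAA near the start. In the Ckm window, capitals mark a match to the E-box, spelled CANNTG. Every motif was searched on both strands.
Lor promoter: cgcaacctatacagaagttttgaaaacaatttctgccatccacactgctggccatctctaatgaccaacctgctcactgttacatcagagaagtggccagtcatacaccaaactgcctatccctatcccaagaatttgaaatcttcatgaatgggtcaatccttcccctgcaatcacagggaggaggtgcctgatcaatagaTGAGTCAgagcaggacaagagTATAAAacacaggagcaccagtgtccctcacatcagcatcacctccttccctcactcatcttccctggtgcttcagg
Ckm promoter: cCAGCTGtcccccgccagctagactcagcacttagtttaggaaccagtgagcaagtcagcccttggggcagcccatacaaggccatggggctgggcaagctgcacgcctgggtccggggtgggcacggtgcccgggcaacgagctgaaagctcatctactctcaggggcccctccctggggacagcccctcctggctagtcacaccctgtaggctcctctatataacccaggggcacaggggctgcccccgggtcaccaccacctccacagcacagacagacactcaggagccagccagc
Of 32851 promoter windows of the same length, 7.81% hold the AP-1 motif, 13.6% hold the second sequence and 72.3% hold the E-box. A match is only a run of letters, and the E-box is found in most windows.

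The label of the sets held for the genes that chose them. The skin score is the mean log2 value of the 13 tested members of a list of 17 epidermal genes. It was 5.71, 4.19, 7.58, 8.23 and 8.46 in replicates 2, 3, 7, 8 and 9, and 1.92, 1.71, 1.59, 1.71 and 2.0 in replicates 1, 4, 5, 6 and 10. The lowest skin-marked library is thus replicate 3 at 4.19, and the highest skin-free library is replicate 10 at 2.0. The listed genes summed to 57.3, 27.1, 320, 354 and 437 CPM (reads per 1000000 reads of the library) in the skin-marked libraries, in that order of replicates. In the skin-free libraries they summed to 10.8, 7.82, 4.87, 7.57 and 10.7 CPM, most of it from keratin 10 and suprabasin, so skin-free means low and not empty. Replicates 2 and 3 were below replicates 7, 8 and 9 in all 13 genes, and the skin-marked set is therefore graded.

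Muscle RNA moved with the same split, with 1 exception. A list of 20 fast skeletal muscle genes took 0.00281%, 0.0136%, 0.0143%, 0.0146% and 0.0334% of the reads in skin-marked replicates 2, 3, 7, 8 and 9. It took 1.11%, 0.0103%, 0.645%, 0.623% and 0.871% in skin-free replicates 1, 4, 5, 6 and 10. Replicate 4 has neither much skin nor much muscle RNA, and it is the library that separates the 2 tissues within these 10. In the other 29 libraries, 6 passed the midpoint of the skin score between the sets (3.10): FL-HER2 day 10 replicates 7 and 10, FL-HER2 day 22 replicate 7, and p95HER2 day 22 replicates 3, 4 and 10. Muscle there was not always low: FL-HER2 day 10 replicate 7 had 1.20% and p95HER2 day 22 replicate 10 had 0.212% of its reads in the muscle list.

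**Figure D1:**
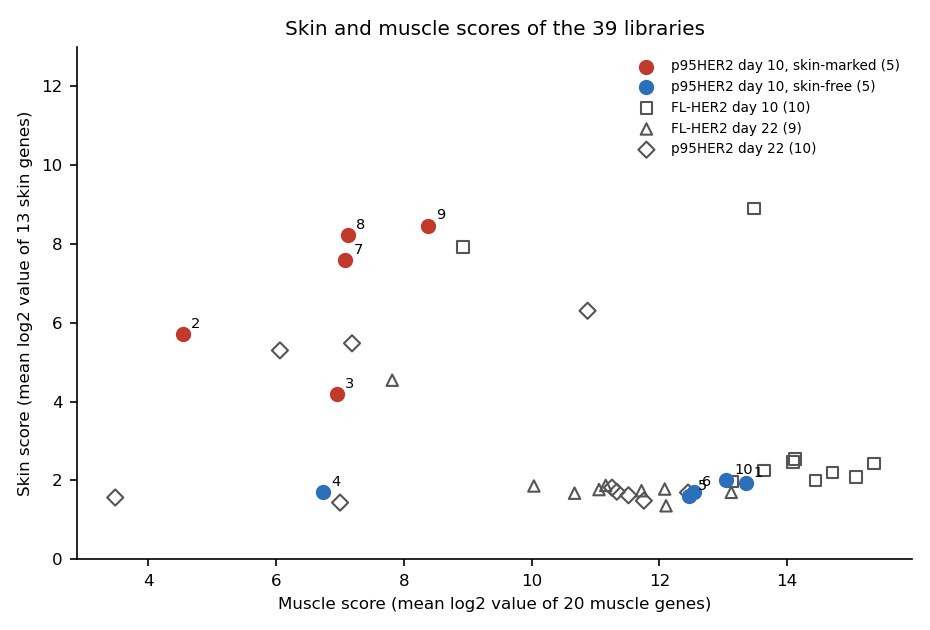
Each point is 1 of the 39 libraries, with the muscle score (mean log2 value of 20 muscle genes) on the x axis and the skin score (mean log2 value of 13 epidermal genes) on the y axis. Numbers are replicates of the p95HER2 day 10 group. All 5 skin-marked libraries (red) lie at 4.19 or above on the skin score, and replicate 4 is the skin-free library (blue) that lies with them on the muscle score.

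Across the 13927 genes tested, 27 were at least 2-fold higher in the skin-marked set with no overlap between the sets (0.194% of genes), and 56 were at least 2-fold lower (0.402%). These 2 conditions together are called past the rule below. The median difference of all genes, skin-marked minus skin-free, was 0.01 on the log2 scale, and the median SE of a difference was 0.12. Of the 27 higher genes, 11 are members of the skin score, and 18 had under 5 CPM even in the skin-marked set. In the other 29 libraries a linear model took the group, skin marking (yes or no) and the muscle score. The skin term gave 27 higher genes (0.194%) and 1 lower gene (0.00719%) at a limma Benjamini-Hochberg adjusted p under 0.05, not counting the score members. The marking of those libraries rests on the score genes, so a call for skin means that a gene moved with them. The muscle term gave 504 higher genes (3.62%) and 96 lower genes (0.69%).

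The keratins of the layers above the basal layer were among the genes that chose the sets. Krt1 (keratin 1, chr15:101845426-101850794 on mm10, minus strand) was at 10.9, 5.70, 116, 102 and 139 CPM in skin-marked replicates 2, 3, 7, 8 and 9. In the skin-free libraries it had 1 read in replicate 10 and none in replicates 1, 4, 5 and 6. Its partner Krt10 (keratin 10, chr11:99385254-99389364, minus strand) was at 21.9, 12.9, 143, 140 and 165 CPM against 5.37, 3.75, 1.39, 3.83 and 5.67 CPM in replicates 1, 4, 5, 6 and 10. Keratin 10 was thus present in every library, and its lowest skin-marked value was above its highest skin-free value. The log2 difference of Krt10 was 4.06 ± 0.73 (SE, 5 against 5 libraries).

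Genes of the cornified envelope and of its desmosomes were split in the same way. Lor (loricrin, the main protein of the envelope, chr3:92080271-92083142, minus strand) was at 9.35, 2.08, 21.8, 44.2 and 57.3 CPM in the skin-marked and 0.469, 0.220, 0.303, 0.257 and 0.165 CPM in the skin-free libraries. The sets did not overlap, and the log2 difference was 5.70 ± 0.77. Asprv1, a protease that processes profilaggrin, differed by 4.65 ± 0.91. Krtdap, a small secreted protein of differentiating keratinocytes, had no read in any skin-free library and was at 1.46, 0.228, 3.81, 6.78 and 8.69 CPM in the skin-marked set. Against a floor of 3 reads per library its mean was at least 48.8-fold higher. The desmosomal cadherins Dsg1a and Dsc1 were likewise at 0 in all 5 skin-free libraries, and at least 35.4-fold and 32.2-fold higher. Dsg1a and Dsg1b are close copies, and their division of reads is uncertain. Of the 13 score members, 11 were past the rule with a median log2 difference over all 13 of 5.43, or 5.01 with the 6 members that were at 0 in the skin-free set taken at their bound. Ivl (involucrin) and Sbsn (suprabasin) were the 2 that overlapped between the sets. Krt77, Flg, Flg2 and Tgm3 of the list were not tested. All of these values belong to the choice of the sets.

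**Figure D2:**
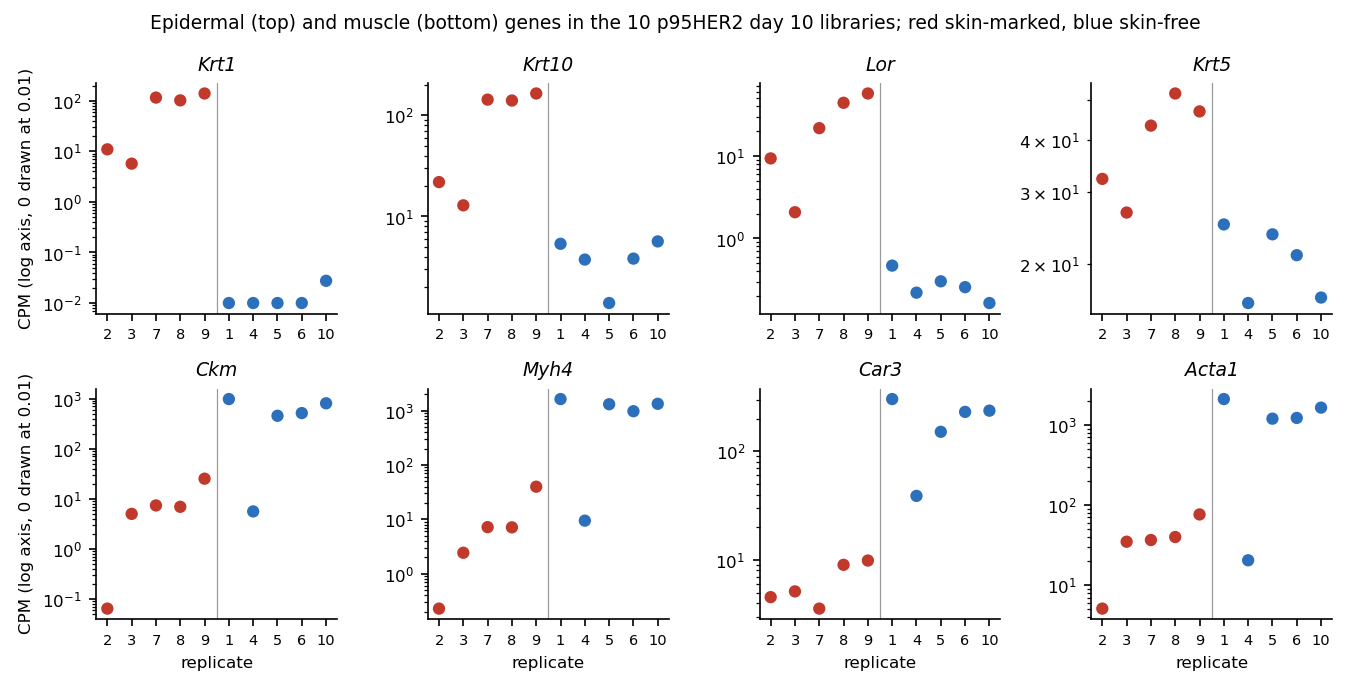
CPM (log axis, 0 drawn at 0.01) of 4 epidermal genes (top) and 4 muscle genes (bottom), 1 point per p95HER2 day 10 library, with replicate numbers on the x axis, skin-marked libraries in red and skin-free in blue. Skin-marked replicates 2 and 3 lie between the others and the skin-free set for Krt1, Krt10 and Lor, and replicate 4 lies with the skin-marked set for Ckm, Myh4 and Acta1.

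Of the 16 higher genes that are not score members, 13 (81.25%) were also called higher by the skin term in the other 29 libraries. That share was 0.194% over all genes. The filter on low values counted the skin-marked libraries of both parts. A gene near 0 elsewhere was tested only through them, so this overlap is partly fixed in advance. The 13 genes are Calm4, Stfa1, Stfa3, BC100530, Dsc3, Dsg1b, Dmkn, Crct1, Lce1a1, Pla2g2f, Serpinb3a, Psapl1 and Trim29. Psapl1 was the weakest of them: its skin term of 2.16 ± 0.48 (limma adjusted p = 0.0342) was no longer called, at 1.77 to 2.22, when FL-HER2 day 10 replicate 7 or 10, FL-HER2 day 22 replicate 7 or p95HER2 day 22 replicate 10 was left out. Calm4 (also called Scarf, a calcium-binding protein of differentiating keratinocytes, chr13:3837757-3838673, plus strand) was at 4.29, 1.28, 20.6, 19.8 and 30.5 CPM in skin-marked replicates 2, 3, 7, 8 and 9. In the skin-free set it was at 0.0586 CPM in replicate 1 and at 0 in the other 4 libraries. In the other 29 libraries Calm4 was at 0.838 to 33.9 CPM where skin-marked and at most 0.108 CPM where not, and its skin term was 7.49 ± 0.53 (SE, limma adjusted p = 8.82e-11). Stfa3 and BC100530, of the stefin A family of cysteine protease inhibitors, were at 0 in all skin-free libraries and at least 71.1-fold and 63.8-fold higher in the skin-marked set. Their skin terms were 5.63 ± 0.72 (limma adjusted p = 1.17e-05) for Stfa3 and 6.17 ± 0.54 (limma adjusted p = 7.43e-09) for BC100530. The stefin A genes are near-identical copies, so the division of reads among them is uncertain.

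Late envelope genes from the chosen list were few at this depth. The cornified envelope list holds 39 genes beside the score, of which 34 are in the table and 7 passed the filter on low values. Crct1 and Lce1a1, both of the epidermal differentiation complex, were past the rule, at least 19.2-fold and 13-fold higher, and both were called by the skin term. Klk7, a protease that sheds the outermost cells, was called by the skin term (3.51 ± 0.65, limma adjusted p = 0.00378), while its sets overlapped in the split (1.6 ± 0.67). Without FL-HER2 day 10 replicate 7 the skin term of Klk7 was 2.63 and not called. Ppl, Evpl and Tgm1, which link or crosslink the envelope, differed in the split by 0.22, 0.18 and -0.03 on the log2 scale, and none was called. The list's 7 tested members had a median of 1.02.

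The basal keratins differed less than Krt1 and Krt10, and the wound keratins were mixed. Krt5 (keratin 5, chr15:101707070-101712898, minus strand) was at 32.2, 26.7, 43.4, 52.0 and 47.0 CPM in skin-marked replicates 2, 3, 7, 8 and 9, and at 24.9, 16.1, 23.6, 21.0 and 16.6 CPM in skin-free replicates 1, 4, 5, 6 and 10. The sets did not overlap, but the log2 difference of 0.92 ± 0.20 was just under the 2-fold threshold. In the other 29 libraries the skin term of Krt5 was 1.71 ± 0.32 (limma adjusted p = 0.00491). Without p95HER2 day 22 replicate 10 it was 1.54 and no longer called. Krt14, the partner of keratin 5, was at 132 to 162 CPM in the skin-marked and 101 to 150 CPM in the skin-free libraries, with a log2 difference of 0.20 ± 0.11. Trp63, the master transcription factor of stratified epithelium, was at 22.3 to 32.1 against 13.9 to 26.8 CPM. Both keratin 14 and Trp63 were thus at 13.9 CPM or above in every library of both sets, including those with almost no Krt1.

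Of the 20 genes on the basal keratinocyte list, all tested, 2 were past the rule, Dmkn (dermokine) and Dsc3 (desmocollin 3). The list median was 0.20. The list name does not place a gene in the basal layer. Dmkn was at 5.07, 1.17, 9.58, 17.8 and 28.0 CPM against 0.440, 0.413, 0.151, 0.743 and 0.440 CPM, a log2 difference of 4.15 ± 0.74. Krt10, of the layers above the basal layer, differed by 4.06 ± 0.73. The skin term was 3.39 ± 0.47 for Dmkn (limma adjusted p = 4.62e-05) and 5.66 ± 0.44 for Dsc3 (limma adjusted p = 6.13e-10). Trim29, a protein of stratified epithelia, was at 5.08 to 8.31 against 2.34 to 3.84 CPM, with a skin term of 2.02 ± 0.27 (limma adjusted p = 2.17e-05). Among the 4 wound keratins none was past the rule. Krt6b was at 3.08, 0.114, 7.56, 2.35 and 2.77 CPM in skin-marked replicates 2, 3, 7, 8 and 9 and at 0.0275 to 0.877 CPM in the skin-free set, a log2 difference of 3.54 ± 1.03 in which replicate 3 overlapped with the skin-free libraries. Krt16 differed by 0.31 ± 0.42. The skin term called Krt6b (4.53 ± 0.75, limma adjusted p = 0.00064) and Krt16 (2.03 ± 0.38, limma adjusted p = 0.00363). Krt6a and Krt6b are close copies, and their division of reads is uncertain. Krt6a (0.86 ± 0.28) and Krt17 (0.16 ± 0.17) overlapped between the sets.

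Few genes of the skin's appendages could be compared, and none of those was past the rule. Of 33 hair follicle genes, 14 had no read in any of the 10 libraries, among them Krt27, Krt31, Krt72, Krt85, Dsg4 and Hoxc13, and the 7 that passed the filter gave none past the rule. The tested Tchh (trichohyalin) was at 16.4 to 20.2 against 14.7 to 22.0 CPM. No member was past the rule among the 6 tested sebaceous gland genes, the 3 tested melanocyte genes, the 7 tested epidermal lipid barrier genes or the single tested member of the Skint family list. These lists had 12, 9, 17 and 13 genes in the table, and the genes below the filter were not compared. None of the 24 tested genes, with those of the hair follicle, was called by the skin term. Over all genes that term called 0.194% higher, so none of 24 is close to that share. The melanocyte genes Tyr and Slc45a2 had no read in any of the 10 libraries. Whether the epidermal RNA came from skin over the tumor or from keratinizing tumor cells was not tested.

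All 27 genes that the skin term called higher had a positive log2 difference in the split, and 13 of them (48.1%) were past the rule. Of the 27, 8 had no read in any skin-free library, so their difference could not be negative. The filter on low values also counted the skin-marked libraries, so the shared sign is partly fixed in advance. Over all 13927 genes, 7359 had a positive difference and 0.194% were past the rule higher. The called genes not past the rule include Aqp3, a water and glycerol channel of keratinocytes, Hal, which makes urocanic acid in the outer layers, and Il1r2, a decoy receptor for interleukin 1. The split differences were 1.76 ± 0.63 for Aqp3, 3.02 ± 0.93 for Hal and 0.53 ± 0.31 for Il1r2, and all 3 overlapped between the sets. Il1r2 lost its call without FL-HER2 day 22 replicate 7 (skin term 1.07) or p95HER2 day 22 replicate 3 (0.94). The 1 gene the skin term called lower was Hrc, a calcium-binding protein of muscle (-0.84 ± 0.17, limma adjusted p = 0.0095). Aqp3, Hal, Il1r2, Hrc, Krt6b, Krt16 and Klk7 were named after their values were seen.

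The 3 higher genes that the skin term did not call were Crabp1, Slc26a9 and Dmbt1, the last 2 named after their values were seen. Crabp1 (a retinoic acid binding protein found in some dermal fibroblasts, chr9:54764748-54773110, plus strand) was at 4.61, 3.17, 4.05, 4.57 and 3.05 CPM in skin-marked replicates 2, 3, 7, 8 and 9. It was at 0.352, 2.23, 0.0908, 0.0857 and 2.28 CPM in skin-free replicates 1, 4, 5, 6 and 10. Replicates 4 and 10 are thus close below the lowest skin-marked library, and replicates 1, 5 and 6 are far below it. Its log2 difference was 2.92 ± 0.82 and its skin term 0.43 ± 0.74 (limma adjusted p = 0.997). Slc26a9, an anion transporter, differed by 1.08 ± 0.32 with a skin term of 0.09 ± 0.26 (limma adjusted p = 0.997). Dmbt1, a secreted mucosal scavenger protein, was at most 1.28 CPM in all 10 libraries and was called lower with muscle (-0.87 ± 0.19 per unit of muscle score, limma adjusted p = 0.00371).

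Skeletal muscle genes showed the largest negative differences, but overlapped between the sets through replicate 4. Ckm (muscle creatine kinase, chr7:19404776-19422841, plus strand) was at 0.0649, 5.02, 7.40, 6.95 and 25.3 CPM in skin-marked replicates 2, 3, 7, 8 and 9, and at 976, 5.62, 453, 513 and 804 CPM in skin-free replicates 1, 4, 5, 6 and 10. Skin-free replicate 4 was therefore inside the skin-marked range. Acta1 (skeletal actin) was at 5.10 to 76.3 CPM in the skin-marked set, at 20.4 CPM in replicate 4 and at 1197 to 2102 CPM in the other 4 skin-free libraries. Myh4, the fastest myosin heavy chain, was at 0.227 to 39.8 CPM, 9.45 CPM and 976 to 1634 CPM in the same order. The mean muscle score was 6.81 in the skin-marked and 11.6 in the skin-free set.

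The same holds across the muscle lists. All 20 muscle score genes, all 20 further fast muscle genes and all 12 slow muscle genes had the 5 skin-marked libraries below the 4 skin-free libraries other than replicate 4. Replicate 4 was within or below the skin-marked range in 20, 19 and 12 of them. The median log2 differences were -4.65, -3.98 and -3.60, and only Cmya5 of these lists was past the rule. Cmya5 (myospryn), a protein of the muscle Z-disc region, was at 5.56 to 9.61 CPM against 10.1 CPM in replicate 4 and 55.1 to 87.7 CPM in the other skin-free libraries. Muscle precursor genes had a median of -1.41, with none of 9 past the rule. Leaving replicate 4 out raised the genes past the rule from 83 to 376, of which 339 were lower.

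Of the 56 lower genes, none was called by the skin term and 35 (62.5%) were called by the muscle term. Over all genes the skin term called 0.00719% lower and the muscle term called 3.62% higher. None of 56 is thus close to the share of the skin term. With no muscle score in the model, the skin term called 14 of the 56 lower, so the call depends on the muscle score. Fabp3 (the fatty acid binding protein of heart and muscle), Jph2 (junctophilin 2) and Synpo2 (a Z-disc protein) had muscle terms of 0.82 ± 0.06, 0.53 ± 0.04 and 0.45 ± 0.05 per unit of score. Their limma adjusted p-values lay between 2.4e-11 for Fabp3 and 6.22e-08 for Synpo2. Jph2 was at 2.24 to 5.56 CPM in the skin-marked set, 6.34 CPM in replicate 4 and 33.6 to 62.6 CPM in the other 4 skin-free libraries. Without FL-HER2 day 22 replicate 7 the skin term also called Synpo2 lower (-1.26). Replicate 4 was the lowest skin-free library in 45 of the 56 genes. Rtn2, Unc45b (a myosin chaperone) and Usp13 had the same form, with log2 differences of -2.79 ± 0.56, -2.67 ± 0.48 and -2.29 ± 0.44. Of the 504 genes that the muscle term called higher, 428 (84.9%) had a negative log2 difference in the split, and the median of the 504 was -1.42. Past the rule in either direction were 36 (7.14%), of which 35 were lower. Over all 13927 genes, 6568 had a negative difference, and 0.402% were past the rule lower and 0.194% higher.

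**Figure D3:**
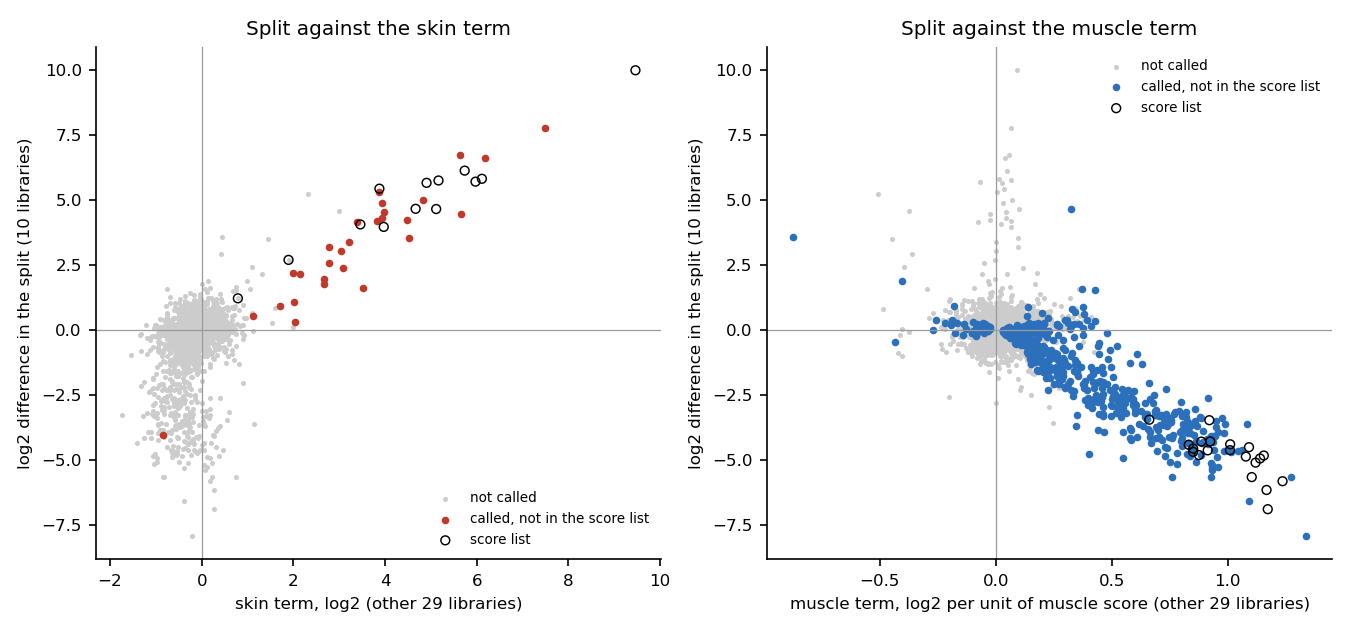
Each point is 1 tested gene, with the log2 difference of the split in the 10 p95HER2 day 10 libraries on the y axis. The x axis is the skin term (left) or the muscle term per unit of muscle score (right) in the other 29 libraries, called genes are colored, and score members are open circles. All 27 genes called higher for skin lie above 0 on the y axis, 8 of them with no read in any skin-free library. Of the 504 genes called higher for muscle, 428 lie below 0.

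Among the lower genes that the muscle term called, the size of the drop in replicate 4 varied. Car3 (carbonic anhydrase 3, abundant in both slow muscle and fat, chr3:14863512-14872523, plus strand) was at 4.55, 5.13, 3.56, 9.02 and 9.88 CPM in skin-marked replicates 2, 3, 7, 8 and 9. It was at 303, 38.9, 151, 231 and 237 CPM in skin-free replicates 1, 4, 5, 6 and 10. Replicate 4 was the lowest of the skin-free set, and the log2 difference of -4.76 ± 0.52 became -2.86 with the muscle score in the fit of the 10 libraries, an adjustment that rests on replicate 4. Igf2, the growth factor (chr7:142650766-142666816, minus strand), was at 2.4, 1.57, 0.762, 0.454 and 1.78 CPM against 4.81, 4.46, 7.75, 6.26 and 6.82 CPM. Its log2 difference was -2.32 ± 0.40, and -2.24 with the muscle score in that fit. H19, the noncoding RNA beside Igf2 and chosen here after its values were seen, was at 126, 152, 92.2, 78.4 and 110 CPM against 243, 187, 252, 305 and 314 CPM. Its difference of -1.27 ± 0.19 became -0.96 in the same fit. Replicate 4 was the lowest skin-free library for Igf2 and H19 too. The muscle term of Igf2 was 0.49 ± 0.06 (limma adjusted p = 1.9e-07) and that of H19 was 0.35 ± 0.04 (limma adjusted p = 1.35e-07), while neither skin term was called (both limma adjusted p = 0.999).

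The remaining 21 lower genes were called by neither term. Cd36 (the fatty acid transporter of fat, muscle, capillaries and macrophages, chr5:17781690-17888801, minus strand) was at 4.19, 2.54, 3.81, 4.2 and 4.89 CPM in skin-marked replicates 2, 3, 7, 8 and 9. It was at 9.32, 12.1, 5.30, 9.31 and 11.2 CPM in skin-free replicates 1, 4, 5, 6 and 10, with a log2 difference of -1.28 ± 0.24. Replicate 4 was the highest of the 10, and the muscle term was -0.04 ± 0.05 (limma adjusted p = 0.758). Plin4, a lipid droplet protein (chr17:56100591-56109803, minus strand), was at 0.342 to 0.810 CPM in the skin-marked set and at 2.29 to 6.99 CPM in the skin-free set. Its log2 difference was -2.80 ± 0.35. Gpd1, which makes glycerol 3-phosphate (chr15:99717515-99725005, plus strand), was at 5.42 to 9.22 against 12.1 to 38.9 CPM, with a muscle term of 0.16 ± 0.05 (limma adjusted p = 0.0643). Its skin term was -0.44 ± 0.27 (limma adjusted p = 0.975).

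Genes of other roles were in the same set. Smoc2, a matrix-associated calcium-binding protein (chr17:14279506-14404790, plus strand), was at 4.55, 8.21, 5.44, 5.27 and 5.86 CPM against 12.5, 9.31, 12.6, 11.5 and 17.0 CPM, a log2 difference of -1.14 ± 0.19. Its muscle term was 0.13 ± 0.04 (limma adjusted p = 0.0554), close to the threshold, and its skin term was -0.53 ± 0.22 (limma adjusted p = 0.739). Ptgis, the prostacyclin synthase, and Sptb, a spectrin of red cells and muscle, differed by -1.26 ± 0.27 and -1.23 ± 0.26. Sptb was at 5.65 CPM in replicate 4, just above the highest skin-marked value of 5.50 CPM. Mir6236, listed as a microRNA gene, was at 7.44 to 16.4 against 16.2 to 74.5 CPM. Its sets overlapped in CPM, and it passed the rule on the deposited scale, where the sets just separated. A further 13 of the 21 genes, named after their values were seen, were Amy1, Angptl1, Atoh8, Cd59a, Cd5l, Dhdh, Ephx2, Fggy, Plin5, Selp, Tmem25, Vtn and Zfp385b. Among them Cd59a, an inhibitor of complement, was at 1.31 to 1.75 against 2.43 to 3.93 CPM (log2 difference -1.10 ± 0.18), and Plin5, another lipid droplet protein, was at most 0.114 CPM in the skin-marked and 0.212 to 0.967 CPM in the skin-free set. For 10 of the 21 genes replicate 4 was the lowest skin-free library and for 2 the highest.

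**Figure D4:**
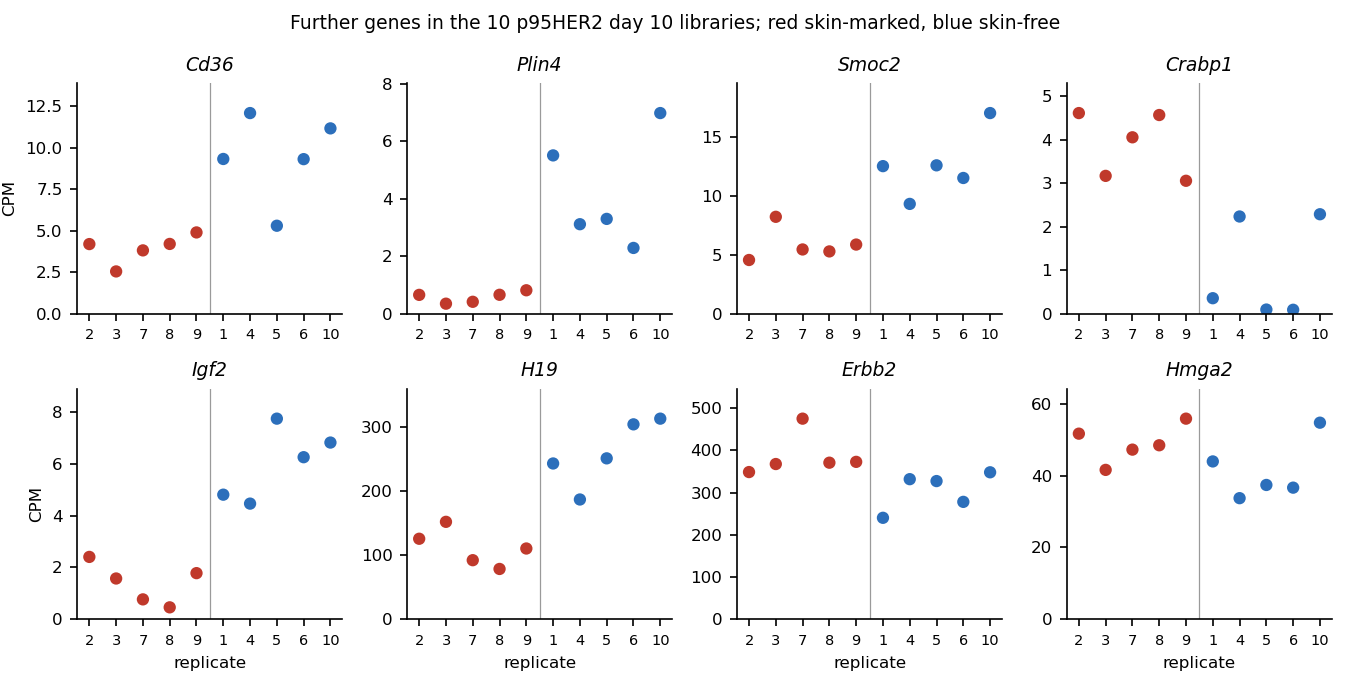
CPM (linear axis) of 8 genes, 1 point per p95HER2 day 10 library, with replicate numbers on the x axis, skin-marked libraries in red and skin-free in blue. Cd36, Plin4, Smoc2, Igf2 and H19 are lower in all 5 skin-marked libraries, Crabp1 is higher in all 5, and Erbb2 and Hmga2 differ by 0.31 and 0.22 on the log2 scale.

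Replicate 4 also stood apart for fat. The adipocyte list has 14 tested members of 18, of which Car3, Plin4 and Cd36 were past the rule and the median was -0.50. With the muscle score in the fit of the 10 libraries, an adjustment that rests on replicate 4 itself, the list median was -1.95. Adipoq (adiponectin) was at 7.19 CPM in replicate 4 and at 0.200 to 1.59 CPM in the other 9 libraries of both sets. Cfd (adipsin) was at 40.9 CPM in replicate 4 and at 1.09 to 13.5 CPM in the others. Replicate 4 was the highest of the 10 libraries in 8 of the 14 genes. Adipoq and Cfd, which define the cell type, overlapped between the sets, with differences of -0.99 ± 0.71 and -0.46 ± 0.85. In the other 29 libraries Cfd was called lower with muscle (-0.43 ± 0.12 per unit of score, limma adjusted p = 0.0315), and Adipoq was not (limma adjusted p = 0.0511). Both were named after their values were seen.

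Stromal gene lists had medians near 0. Of 79 tested genes in 5 lists (fibroblasts, matrix, smooth muscle and pericytes, Schwann cells, endothelium), 3 were past the rule, among them Crabp1 and Synpo2. Over all genes 0.194% were past the rule higher and 0.402% lower, so 3 of 79 is above that share. List medians ran from -0.28 to 0.12 on the log2 scale. Below 0 were 14 of 18 fibroblast, 18 of 24 matrix, 10 of 12 smooth muscle and pericyte, and 15 of 16 endothelial genes. Of 9 Schwann cell genes 2 were below 0. The skin term called none of the 79. The muscle term called 1 higher (Synpo2) and 2 lower (Notch3 and Pdgfra). Col1a1 (collagen I) was at 3772 to 4874 CPM against 2698 to 6034 CPM, and Pecam1, which marks endothelium, at 33.4 to 37.5 against 29.2 to 59.6 CPM. The skin-marked values of both lay within the skin-free range.

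Immune genes varied more between libraries than between sets. Among 74 tested genes in 7 lists (macrophages, neutrophils, T and NK cells, B and plasma cells, mast cells, interferon response, MHC class II) none was past the rule. Over all genes 0.194% were past it higher and 0.402% lower, so none of 74 is close to that share. List medians ran from -0.44 to 0.63, and the median SE was 0.46. Above 0 were all 20 interferon, 17 of 18 T and NK cell, 5 of 6 neutrophil and all 5 mast cell genes. Below 0 were all 8 MHC class II genes, 2 of 2 for B and plasma cells, and 10 of 15 macrophage genes. With the muscle score in the fit of the 10 libraries, which rests on replicate 4, the medians went from 0.24 to 1.74 for T and NK cells, from 0.24 to 1.25 for the interferon response and from -0.07 to 0.65 for MHC class II. Cd74, the MHC class II chaperone, was at 167 to 357 CPM in the skin-marked set and at 142 to 927 CPM in the skin-free set, with replicate 6 at 927 CPM. Gbp2, an interferon-induced GTPase, was at 174 to 1273 CPM against 97.7 to 1111 CPM. Mmp9, a gelatinase of neutrophils and macrophages, was at 99.3, 64.5, 59.7, 32.0 and 31.9 CPM against 13.8, 54.5, 7.56, 9.68 and 39.6 CPM. Its log2 difference was 1.45 ± 0.53 and its skin term 0.10 ± 0.23 (limma adjusted p = 0.997). Skin-free replicates 4 and 10 lay inside the skin-marked range for Mmp9. The skin term called 1 of the 74 genes, Il1r2, and the muscle term called 11, all higher, among them C1qa, Cd3g, Gzmb and Cd74. Over all genes the skin term called 0.194% higher and the muscle term 3.62% higher, so the muscle count is above its share.

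No listed gene of the tumor cells or of general cell functions passed the rule. Over 9 lists (p95HER2-high genes, MAPK targets, luminal epithelium, proliferation, hypoxia and glycolysis, oxidative phosphorylation, ribosomal proteins, cholesterol synthesis, stress genes) none of 159 tested genes was past it. Over all genes 0.194% were past the rule higher and 0.402% lower, so none of 159 is close to that share. List medians ran from -0.09 to 0.15, and the median SE was 0.11. Below 0 were all 22 oxidative phosphorylation and all 22 ribosomal protein genes, and 9 of 16 of hypoxia and glycolysis. Above 0 were all 20 cholesterol synthesis genes, 15 of 18 MAPK targets, 16 of 20 proliferation, 14 of 19 luminal and 7 of 10 p95HER2-high genes. Of 12 stress genes 6 were above 0 and 6 below. With the muscle score in the fit of the 10 libraries, which rests on replicate 4, the medians ran from -0.07 to 0.44. Only Cox7a1 differed by 2-fold or more (-1.54 ± 0.66). It is the muscle form of a respiratory chain subunit. No gene of the 159 was called by the skin term and 1, Bub1, by the muscle term. Over all genes the skin term called 0.194% higher and 0.00719% lower, and the muscle term 3.62% higher and 0.69% lower. The ranges of Krt8 and Epcam, which mark luminal epithelium, were 582 to 663 against 553 to 752 CPM and 562 to 620 against 421 to 668 CPM. The range of Mki67, a marker of dividing cells, was 325 to 471 against 311 to 561 CPM, and that of the MAPK target Etv5 was 211 to 277 against 212 to 284 CPM.

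The receptor itself was close between the sets. Erbb2 (chr11:98412470-98437716, plus strand) collects reads of the construct as far as they align to the mouse gene. It was at 349, 368, 475, 371 and 373 CPM in skin-marked replicates 2, 3, 7, 8 and 9, and at 240, 332, 327, 278 and 348 CPM in skin-free replicates 1, 4, 5, 6 and 10. The log2 difference was 0.31 ± 0.12. In CPM the lowest skin-marked library was just above the highest skin-free library, and on the deposited scale the sets overlapped. In the other 29 libraries the skin term of Erbb2 was 0.06 ± 0.12 (limma adjusted p = 0.997) and its muscle term -0.02 ± 0.02 (limma adjusted p = 0.647). Hmga2, a chromatin protein of the p95HER2-high list (chr10:120361275-120476469, minus strand), was at 41.7 to 56.0 against 33.8 to 54.9 CPM and differed by 0.22 ± 0.14.

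**Figure D5:**
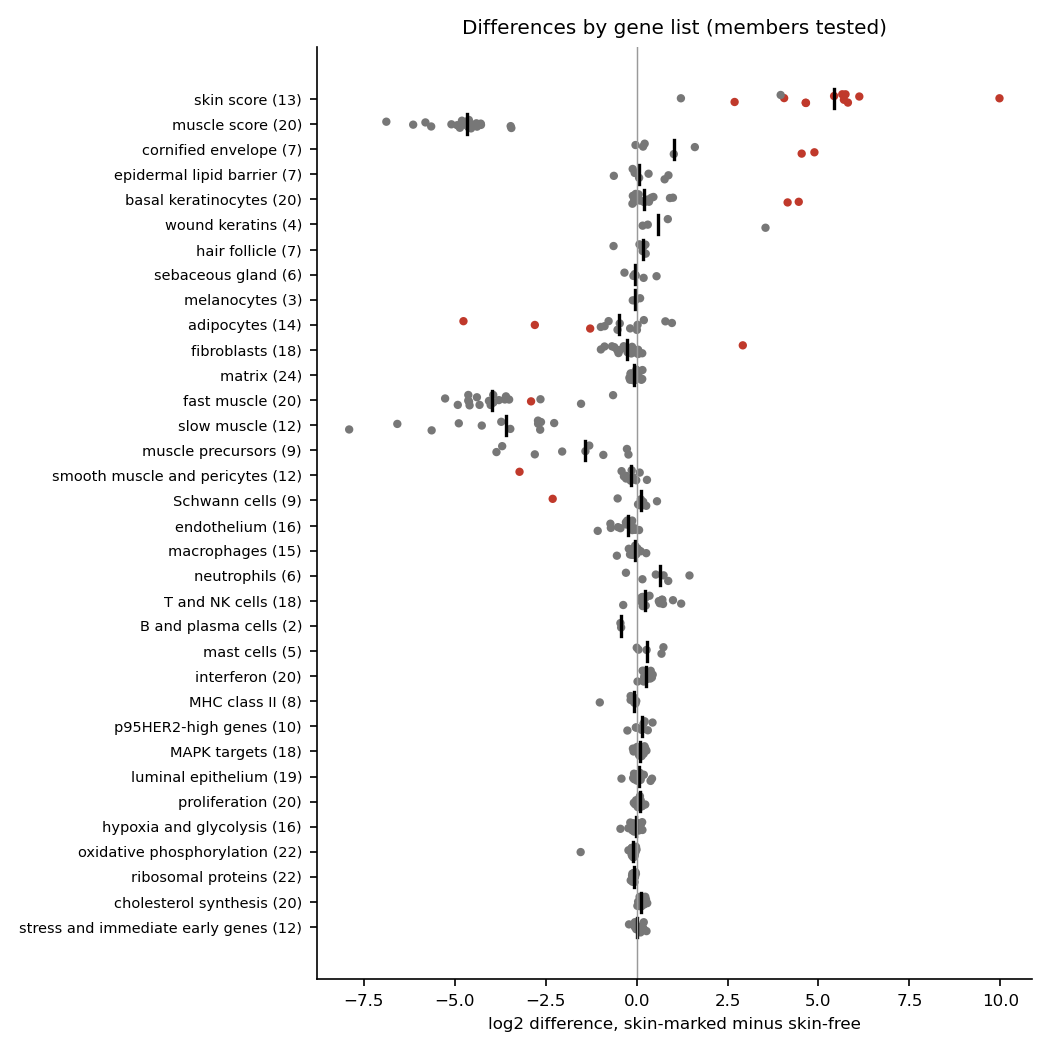
Each point is 1 tested gene, placed by its log2 difference (skin-marked minus skin-free, 5 against 5 libraries) on the x axis and by gene list on the y axis, with the number tested in parentheses. Bars are list medians and red points are past the rule, and a gene can stand in more than 1 list. The skin score list lies far to the right (median 5.43) and the muscle lists far to the left (medians -4.65, -3.98 and -3.60), while the 9 tumor and housekeeping lists have medians between -0.09 and 0.15.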

How the data were processed

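The values used are the authors' deposited log2 values per gene, made with STAR 2.4.2a, DESeq2 and mm10 per the submitters' processing notes. Undoing the log2 gave whole multiples of 1 step per library for 100% of values (tolerance 0.001 reads), so each is log2(count / size factor + 1). The recovered reads gave CPM for levels and filters. Of 20520 genes, 13927 had at least 1 CPM in at least 5 of 39 libraries and were tested. One CPM stands for over 20 reads. Counting error was not set apart from the spread between libraries, and it weighs most on genes with few reads. In the higher set, 18 of the 27 higher and 30 of the 56 lower genes had under 5 CPM.

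Differences between the 2 sets of 5 are means of log2 values with SEs from limma 3.58.1 in R 4.3.3, given without p. The skin and muscle terms are from limma (group, skin marking and muscle score, eBayes with a trend, two-sided) in the other 29 libraries, with Benjamini-Hochberg adjustment over all genes tested in each term. A library was skin-marked above the midpoint of the sets' skin scores (3.10). On simulated data the skin term recovered 68% of genes changed 2-fold and 100% of those changed 4-fold, of 100 each among 12459 genes. The rule for the split recovered 28% and 99%. The simulation gave every gene the same relative spread, and no effect of group or muscle outside the score genes. Real genes differ in spread, with a median SE in the split of 0.12 over all genes and 0.46 in the immune lists. The simulated shares are therefore not the power of the real fits.

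The sets, the 35 gene lists and the comparisons were chosen with earlier results of these data known. Genes were named by a rule: up to 10 of the largest differences in each direction with at least 5 CPM, up to 10 in each direction that neither term calls, up to 5 outside the skin and muscle lists that a term calls, 2 to 4 members per list, and Erbb2, Hmga2, Krt1, Krt10, Lor, Krt5, Krt14, Ckm, Acta1 and Myh4. Others are marked as named after their values were seen, apart from list members given as part of a list's count. Some genes that the rule takes are not reported here. Positions are from GENCODE on mm10. Counting can divide reads between near-identical genes. Alternatives changed the pseudocount, scaling, filter, fold, covariates, library weights (voom) and the libraries used.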

Additional observations from a re-analysis of the deposited data

Results flagged for a closer look

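Among 119 genes and 2 scores checked, 9 genes had a library that stood apart: in each, 1 of the 10 p95HER2 day 10 libraries was far from the rest, by the gap to its nearest neighbour divided by the whole range of log2 values. About 1 in 20 groups passes this limit by chance. Skin-free replicate 5 was the library for Rplp0 (gap 0.649, 2578 CPM), Ncam1 (0.576, 82.3 CPM), Lyz2 (0.557, 59.6 CPM, the lowest) and Mir6236 (0.524, 74.5 CPM). Skin-free replicate 6 was the library for the MHC class II genes Cd74 (0.495, 927 CPM) and H2-Ab1 (0.47, 414 CPM), and for Trp63 (0.52, 13.9 CPM, the lowest). Skin-marked replicate 7 was the library for Il1r2 (0.536, 6.86 CPM), and skin-free replicate 4 for Cidec, a lipid droplet protein (0.522, 6.01 CPM).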

How the results depend on the processing

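In the split 83 genes were past the rule, and counted anew in each setting 55 passed on log2(CPM + 1), 49 with a filter at 5 CPM, 129 with no filter and 55 at 4-fold. With the muscle score as a covariate 126 passed, 83 of them higher, and 38 were shared with the 83 found without it. Leaving out single libraries gave 84 to 376, the highest without replicate 4. Without the 2 skin-marked libraries lowest in skin score, a setting chosen after seeing the data, 130 passed. The skin term called 28 genes, 7 with a filter at 5 CPM, 86 with no filter, 162 with no muscle score (122 lower), 12 in the p95HER2 day 22 libraries alone, and 25 to 37 without 1 skin-marked library. The muscle term called 600 genes, 1520 with no skin term, 277 in the p95HER2 day 22 libraries alone, and 406 to 964 without 1 skin-marked library, the highest without p95HER2 day 22 replicate 10. Its split of 504 higher and 96 lower became 421 and 293 on log2(CPM + 1), 407 and 285 with voom, and 385 and 140 with quantile normalization. Among the genes past the rule in each setting, the skin term called 13 in the setting reported, 5 with a filter at 5 CPM, 31 with no filter, 27 with no muscle score (14 of them lower), and 12 to 22 without 1 library, the highest without p95HER2 day 10 replicate 3. The cause of these shifts was not tested, other than that a filter changes how many genes can be counted. No difference or term changed sign while called. Over 119 genes and all settings, 106 of the split's differences moved by more than 1 SD between libraries and 1883 did not, and 13 skin terms became called, 38 lost the call and 1819 kept their side of the threshold. The planned quasi-likelihood count test was not run. No paired analysis was possible because the replicate numbers only follow the order of the records.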
